A study of Homo sapiens with 6 samples.

Results

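The genes described here were those for the proteins of the cytosolic ribosome. The rule for them goes by name: every protein-coding gene of GENCODE release 44 called RPL or RPS followed by a digit, with RPLP0, RPLP1, RPLP2 and RPSA added, and with S6 kinase genes, hyphenated readthrough names and pseudogene names left out. The rule found 87 of the 62252 genes in the files, 53 of the large subunit and 34 of the small subunit, with 859 annotated transcripts. Of these, 77 were core genes and 10 were paralogs, second copies of a core gene that are used in few tissues or at low levels (RPL3L, RPL7L1, RPL10L, RPL22L1, RPL26L1, RPL36AL, RPL39L, RPS27L and a Y-linked pair for which no level is given here). Names such as FAU and RACK1, whose products are also ribosomal proteins, fall outside the rule. K562 cells, an erythroid leukemia line grown in suspension, had been kept overnight either with 10 µM 21H7, a cell-permeable iron chelator (the Chelator group), or with the same volume of its solvent (the DMSO group). Each group held 3 libraries of polyadenylated RNA. Both groups come from a single unmodified cell line, and the labels do not say whether the libraries of a group came from separate cultures, so the p-values measure the spread between these libraries, which may be technical.

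A ribosome holds 1 copy of nearly every core protein, with the acidic stalk proteins in several copies, so that a cell needs these proteins in matched amounts, and their mRNAs are among the most abundant in a growing cell. Most ribosomal protein mRNAs begin with a C followed by an unbroken run of pyrimidines, the 5′ terminal oligopyrimidine (TOP) motif. Translation of TOP mRNAs follows the kinase mTORC1 through the binding protein LARP1, so that the amount of these mRNAs and their use by ribosomes can move apart, and only the amount was measured here. Erythroid precursors are known for their sensitivity to a shortage of ribosomal proteins, which causes Diamond-Blackfan anemia, and several ribosomal protein genes lower their own output by making transcripts that are degraded.

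The start of the mRNA was read from RefSeq windows on GRCh38.p14, which were matched by symbol for 68 members. A TOP start was taken as a C at the annotated first base followed by at least 4 bases that are each C or T, read on the strand of the gene. It was found in 42 of the 62 core genes with a window (67.7%), in 1 of the 6 paralogs, and in 4.04% of all 27305 windows. The 30 bases around the annotated start are shown for the 5 members with the largest rise, for 2 of the 4 members that fell (RPL7L1 and RPS15), and for core genes with their paralogs, since these are set against each other. Each line runs 5′ to 3′ with 15 bases on either side of the start boundary, and capitals mark the unbroken run of C and T from the first transcribed base.
RPS19, chr19:41860240-41860269, plus strand: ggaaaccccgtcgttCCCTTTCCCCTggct
RPLP1, chr15:69452803-69452832, plus strand: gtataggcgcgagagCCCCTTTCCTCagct
RPL22, chr1:6199581-6199610, minus strand: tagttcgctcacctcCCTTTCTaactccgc
RPL22L1, chr3:170870181-170870210, minus strand: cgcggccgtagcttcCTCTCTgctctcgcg
RPL36A, chrX:101390996-101391025, plus strand: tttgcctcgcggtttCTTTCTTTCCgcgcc
RPL36AL, chr14:49620612-49620641, minus strand: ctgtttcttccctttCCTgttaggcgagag
RPL27A, chr11:8682777-8682806, plus strand: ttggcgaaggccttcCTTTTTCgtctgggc
RPL26, chr17:8383179-8383208, minus strand: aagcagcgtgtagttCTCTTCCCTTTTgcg
RPL26L1, chr5:172958714-172958743, plus strand: agtcttccaggggtcggcgaacgaaacgcg
RPS27, chr1:153990747-153990776, plus strand: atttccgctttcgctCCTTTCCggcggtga
RPS27L, chr15:63157463-63157492, minus strand: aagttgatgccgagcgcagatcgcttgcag
RPL7L1, chr6:42879601-42879630, plus strand: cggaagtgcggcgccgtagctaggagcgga
RPS15, chr19:1438381-1438410, plus strand: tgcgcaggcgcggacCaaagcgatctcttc
All 5 of the largest rises had a TOP start at the annotated position, as did 67.7% of the core genes with a window, and RPL7L1 and RPS15 did not. No window is shown for RPL23 and RPL39L, the other members that fell. RPL22L1 was the paralog that had a TOP start. A start annotated a few bases away from the one used in K562 cells would hide a run, so no match says only that these letters were not at this position.

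Each library held between 78503650.0 and 100954347 estimated counts. The erythroid markers GATA1, TAL1, KLF1, HBG1, HBG2, HBE1, HBZ, ALAS2 and EPOR were all above 1 TPM on average, TPM being a level per effective length that is scaled to the same total in every library. The summed level of the erythroid list was higher in every Chelator library, at 12391 to 13735 TPM in DMSO and 17528 to 18717 TPM in Chelator, led by globin genes such as HBE1 (2649 to 2910 and 4556 to 5143 TPM), while KLF1, an erythroid transcription factor (77.8 to 87.4 and 47.7 to 52.9 TPM), TAL1 (48.7 to 61.7 and 42.9 to 46.1 TPM) and EPOR (10.5 to 12.6 and 7.49 to 9.01 TPM) were lower in every Chelator library. The part of this shift in the results on ribosomal protein genes was not tested. Of 8 markers of other cell types, 4 were above 1 TPM, led by EPCAM at 62.3 to 68.8 TPM in DMSO and 45.6 to 50.3 TPM in Chelator, while MS4A1 was at 0 in every library. A technical measure separated the groups: the fragment length that the effective lengths carry was 253 to 265 bases for DMSO against 201 to 219 for Chelator. Ribosomal protein mRNAs are short, so this bears on them more than on most genes. Shorter fragments leave more start positions on a short transcript, and the average effective length, which is the number of start positions that the counts are divided by, was longer in Chelator for 62 of the 77 core genes, with a median ratio of 1.102, against 1.02 over all genes tested. The test therefore carried each gene's effective length as an offset. Treatment and fragment length cannot be told apart in these 6 libraries. DMSO replicate 2, the library with the longest fragments, held the lowest normalized count of the DMSO group for 82 of the 84 members that could be tested, at a median of 0.861 times the mean of the other DMSO libraries. It was the lowest of its group for 39.9% of all genes.

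The ribosomal protein genes took a larger part of the measured RNA after iron chelation. They held 14.5, 14.4 and 14.1% of all TPM with DMSO and 16.7, 18.3 and 17.4% with the chelator. Every Chelator library lay above every DMSO library, with means of 14.3% ± 0.232 and 17.5% ± 0.823 (SD, n = 3 each). TPM divides by the effective length, so the share was also taken over the counts themselves. It was 5.597, 4.96 and 5.397% in DMSO and 6.62, 7.39 and 7.14% in Chelator, again without overlap. Counts are not divided by length, and the shorter Chelator fragments leave more start positions on short transcripts. The share of counts is therefore no independent check of the share of TPM. In both, the exact two-sided permutation test gave p = 0.10, the smallest value that 3 against 3 libraries allow, so the design cannot pass 0.05 for a single value. These are shares of the sequenced RNA: a change in the RNA per cell and a change in which cells were present cannot be told apart from them.

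**Figure D1:**
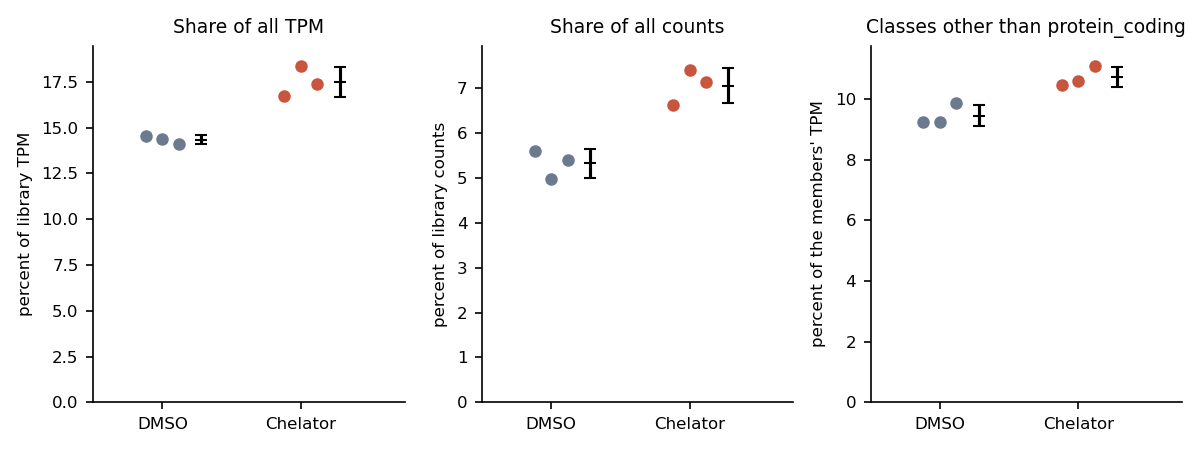
The share of the ribosomal protein genes in each library's TPM (left) and counts (middle), and the percent of their own TPM in transcript classes other than protein_coding (right), for 3 DMSO and 3 Chelator libraries. Points are libraries and bars are the mean ± SD; in each panel the 3 Chelator points lie above the 3 DMSO points.

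Gene by gene, 84 members passed the total count of 10 and had an adjusted p, and the 3 others were RPL10L, with at most 3 counts in a library, and the Y-linked pair. Of the 84, 45 were higher in Chelator at an adjusted p under 0.05 (DESeq2, adjusted over all genes), 4 were lower and 35 did not pass. That is 53.6% higher against 19.5% of all 24542 genes tested, and 4.76% lower against 18.3%. The changes were small. The rises ran from 0.17 to 0.87 on the log2 scale (at most 1.83-fold), the median over the 84 was 0.24 against 0.02 over all genes tested, and no member both passed the test and changed by over 1 on the log2 scale, which 10.8% of all genes did (RPL3L, a paralog with few counts, was past that fold without passing the test). In 51 members every Chelator library lay above every DMSO library (25.5% of all genes), and in 3 every Chelator library lay below (23.7% of all genes). Among the core genes 43 of 77 rose and 2 fell. The subunits moved alike in these counts, with 26 of 46 core genes of the large subunit and 17 of 31 of the small subunit higher, and with medians of 0.24 and 0.25.

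The size of this shift rested on how length and base composition were handled. With no length offset 64 members were higher and 1 was lower (20.9% and 20.2% of all genes), with a median of 0.33. With trends of fold change on GC content and transcript length removed over all genes, 22 were higher and 19 lower (16.2% and 23.8% of all genes), the median of the members was 0.02, and that of all genes was -0.08. Centring on the mean log2 change of all genes, which lowered the median of all genes by 0.11, left 23 higher and 6 lower (15.1% and 22.4% of all genes). Without DMSO replicate 2 there were 38 higher and 7 lower with a median of 0.16, and without DMSO replicate 3 or Chelator replicate 3 there were 2 lower. Of the 45 rises, 15 passed in the same direction in all 16 alternative settings run: RPL3, RPL10, RPL22, RPL27A, RPL35A, RPL36A, RPL37, RPL37A, RPL38, RPLP1, RPS4X, RPS9, RPS12, RPS19 and RPS24. Of the 4 falls, RPL7L1 did.

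**Figure D2:**
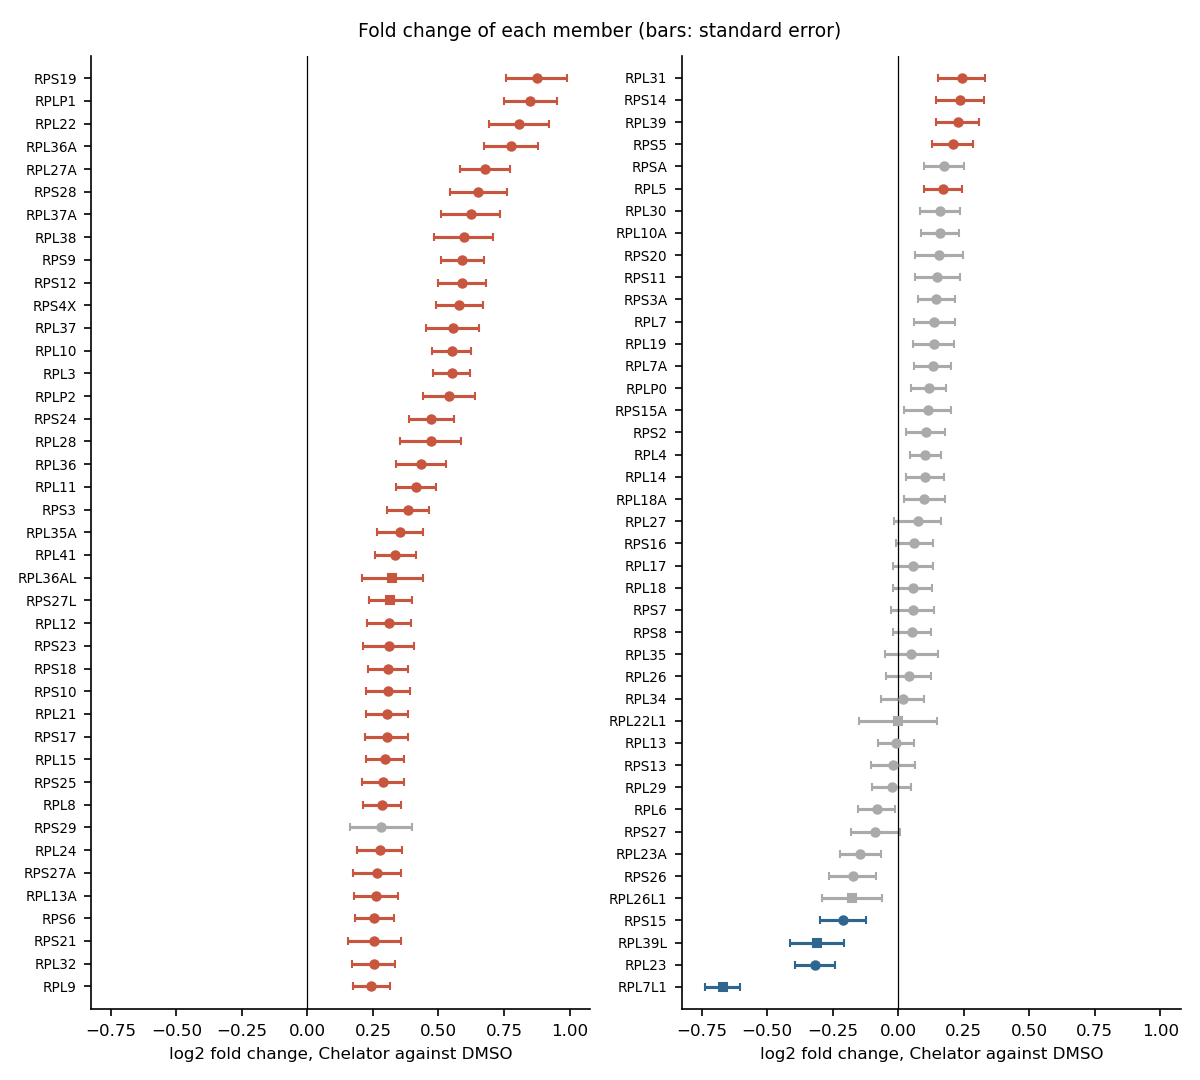
Log2 fold change (Chelator against DMSO, horizontal axis) with its standard error for the 83 members that had an adjusted p and a mean normalized count of at least 100, sorted from RPS19 at 0.87 to RPL7L1 at -0.67. Red and blue mark members higher and lower at an adjusted p under 0.05, gray those that did not pass, circles core genes and squares paralogs.

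**Figure D3:**
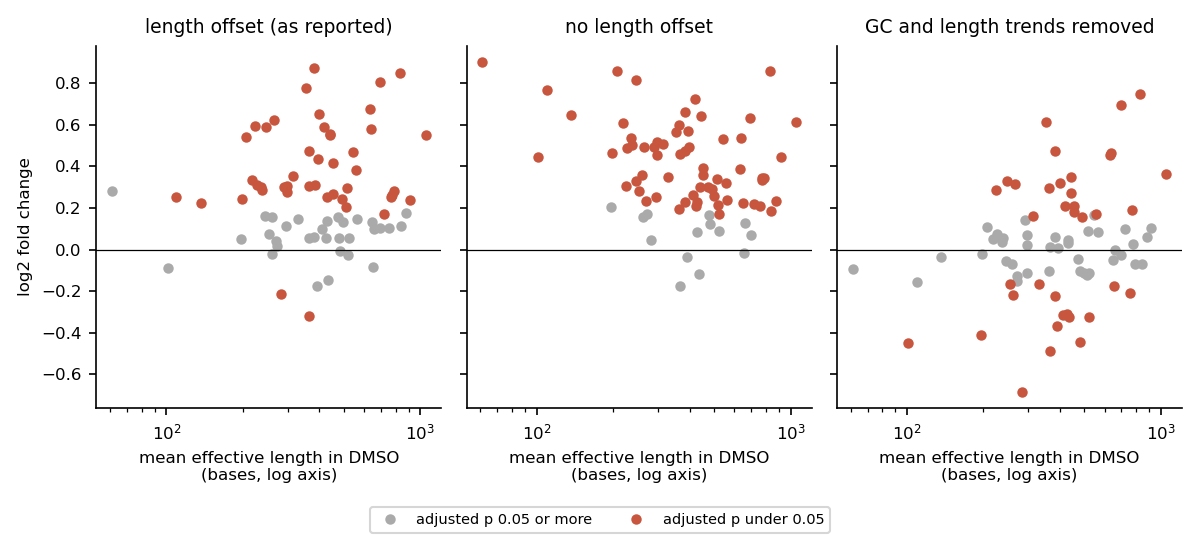
Log2 fold change of the 77 core genes against their mean effective length in DMSO (bases, log axis) with the length offset, without it, and with GC content and length trends removed over all genes. Red points have an adjusted p under 0.05; without the offset the median is 0.47 below 300 bases and 0.30 from 300 bases on, and with the trends removed red points lie on both sides of 0.

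The shortest genes showed this most. RPS29 had an average effective length of 61.0 bases under DMSO and of 95.3 under Chelator, and its log2 fold change was 0.28 with the offset (adjusted p = 0.050, not passed) and 0.90 without it. RPS27, whose effective length went from 101 to 148 bases, was at -0.09 ± 0.09 (SE; adjusted p = 0.52) with the offset, at 0.45 without it and at -0.45 with the trends removed, and both of the latter had an adjusted p under 0.05. No direction is given for RPS27. For members of 300 bases or more the median was 0.24 with the offset and 0.30 without it, over 52 core genes. With the trends removed the median of these 52 was 0.04, with 18 higher and 11 lower (16.2% and 23.8% of all genes). RPS2, of 755 bases in DMSO, was at 0.21 without the offset and at -0.21 with the trends removed, each with an adjusted p under 0.05.

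Per length, the core genes spanned 11.8-fold, from 429 to 5043 TPM as a mean over the 6 libraries, with a median of 1825 TPM, and 66 of the 77 lay within 2-fold of that median. The coefficient of variation over the core genes ran from 47.6% to 49.1% with DMSO and from 46.1% to 48.7% with the chelator. In all, 56 core genes were among the 100 genes of highest mean TPM. RPS18, which sits in the head of the small subunit, was the most abundant, with TPM of 4524, 4559 and 4267 in DMSO and 5515, 5925 and 5469.8 in Chelator. RPS23, at the decoding center, followed with 3979, 3771 and 4194 in DMSO and 5118, 5330.1 and 4758 in Chelator. RPL7, a large-subunit protein, had 4034, 4098 and 3888 in DMSO and 4651, 4488 and 4376 in Chelator. The TPM of RPS23 and RPL7 overlapped in DMSO, and RPS2 (mean 4110.0 TPM) and RPL13A (mean 4067 TPM) came close behind. RPS26, which contacts the mRNA upstream of the start codon, was the least abundant core gene, with TPM of 471, 449 and 427 in DMSO and 389, 446 and 389 in Chelator. RPL36A, on the X chromosome, had 467, 483 and 467 in DMSO and 693, 975 and 821 in Chelator. RPL36 and RPL22 were next at means of 737 and 863 TPM, with RPS28 between them at 831 TPM. This order is that of the means over all 6 libraries and differs within the groups, since in DMSO RPL22 (616 TPM), RPL36 (617 TPM) and RPS28 (635 TPM) lay close together, and in Chelator RPL23A (968 TPM) and RPS7 (995 TPM) lay below RPS28 (1027 TPM). RPS26 and RPL36A overlapped in DMSO and stood apart in Chelator.

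The largest rise was that of RPS19, a small-subunit protein needed to mature 18S rRNA and the gene most often mutated in Diamond-Blackfan anemia. Its normalized counts, which are counts scaled for library size and effective length, were 40792, 29385 and 36311 in DMSO and 56006, 68929.5 and 70258 in Chelator. All Chelator libraries lay above all DMSO libraries (log2 fold change 0.87 ± 0.12 (SE, n = 3 per group), DESeq2 adjusted p = 1.17e-12). The gene lies at chr19:41860255-41872925. RPLP1, an acidic protein of the stalk that recruits elongation factors, had 75189, 56389.8 and 65226 in DMSO and 107958, 122620.0 and 124254 in Chelator. Its groups did not overlap either (log2 fold change 0.85 ± 0.10 (SE, n = 3 per group), DESeq2 adjusted p = 1.45e-15), and the rise was nearly the same without the offset (0.86) and with the trends removed (0.75). RPL22, a large-subunit protein that cells can do without, had 36826, 25899.7 and 32072 in DMSO and 50288, 59132 and 56411 in Chelator. Its lowest Chelator library was above its highest DMSO library (log2 fold change 0.81 ± 0.11 (SE, n = 3 per group), DESeq2 adjusted p = 1.29e-11).

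RPL36A had normalized counts of 12736, 11108 and 12533 in DMSO and 17929.5, 23786 and 20591 in Chelator. The groups were apart (log2 fold change 0.78 ± 0.10 (SE, n = 3 per group), DESeq2 adjusted p = 5.78e-13). RPL27A, another large-subunit protein, had 56146, 44072 and 50775 in DMSO and 74009.8, 84862 and 82612 in Chelator, also without overlap (log2 fold change 0.68 ± 0.09 (SE, n = 3 per group), DESeq2 adjusted p = 9.86e-12). For RPS19, RPL22, RPL36A and RPL27A the average effective length went down in Chelator (RPS19 from 382 to 333 bases, RPL27A from 631 to 520 bases), where that of most core genes went up, and such an average goes down when counts move towards shorter transcripts of a gene. In RPL36A the coding transcript RPL36A-206, of 399 bases, went from 36.1% to 62.6% of the gene's TPM, and RPL36A-209, of 761 bases, from 51.3% to 22.3%. In RPL22 the coding transcript RPL22-205, of 524 bases, went from 27.2% to 56.6%, and RPL22-207, of 786 bases, from 43.5% to 21.4%. Without the offset the log2 fold changes of RPS19, RPL22, RPL36A and RPL27A were 0.66, 0.63, 0.56 and 0.39, and with the trends removed 0.47, 0.70, 0.62 and 0.46, all with an adjusted p under 0.05.

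The member that fell most was RPL7L1, a paralog of RPL7 found in precursors of the large subunit rather than in working ribosomes (chr6:42879616-42889925). Its normalized counts were 49449.9, 49849 and 51722 in DMSO and 33349, 29913 and 31647 in Chelator. Every Chelator library lay below every DMSO library (log2 fold change -0.67 ± 0.07 (SE, n = 3 per group), DESeq2 adjusted p = 1.02e-21), and the fall was -0.72 without the offset and -0.66 with the trends removed. Its effective length was 3279 bases in DMSO and 3188 in Chelator. RPL23, a large-subunit protein that can also bind the p53 regulator MDM2, had 45948, 39354 and 45490.5 in DMSO and 34828, 35402 and 34657 in Chelator. The groups were apart (log2 fold change -0.32 ± 0.08 (SE, n = 3 per group), DESeq2 adjusted p = 1.47e-04), but without the offset the call was lost (-0.17, adjusted p = 0.054), and with the trends removed the value was -0.49. RPL39L, a paralog best known from the testis, had 2363, 2156 and 2394 in DMSO and 2094, 1748 and 1733 in Chelator (log2 fold change -0.31 ± 0.10 (SE, n = 3 per group), DESeq2 adjusted p = 0.0092). Its groups did not overlap, but its call was lost when DMSO replicate 3, Chelator replicate 2 or Chelator replicate 3 was left out (adjusted p 0.062 to 0.080) and without the offset (-0.17, adjusted p = 0.13). RPS15, a small-subunit protein needed for export of the precursor from the nucleus, had 50126, 40626 and 44422 in DMSO and 37344, 41030.3 and 38429.8 in Chelator. The groups overlapped (log2 fold change -0.21 ± 0.09 (SE, n = 3 per group), DESeq2 adjusted p = 0.04), its value was 0.05 without the offset and -0.68 with the trends removed, and leaving out any library but DMSO replicate 2 or Chelator replicate 2 lost the call (adjusted p 0.099 to 0.22). With all libraries the call of RPS15 was also lost with edgeR and with TMM size factors (-0.17 in both, adjusted p 0.12 and 0.11), over protein_coding transcripts only (adjusted p = 0.090) and with a replicate block (adjusted p = 0.074).

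The 3 stalk proteins, which form the arm of the large subunit that elongation factors touch, did not rise by the same amount. RPLP0, the base of the stalk, was at 214623, 197387 and 206008 in DMSO and 232259, 221263 and 216311 in Chelator. Its Chelator libraries were all higher, but the test did not pass at 0.12 ± 0.07 (SE; adjusted p = 0.16). RPLP1 rose as above. RPLP2, its partner in the stalk dimer, had 43181, 32526 and 37245 in DMSO and 52442, 57959.5 and 53814 in Chelator and rose by 0.54 ± 0.10 (SE; adjusted p = 2.88e-07). With the trends removed RPLP2 was at 0.11 (adjusted p = 0.29), and RPLP1 still passed. The difference between the stalk genes was not tested. RPL5 and RPL11, which with 5S rRNA form a particle that binds MDM2 when it is not built into ribosomes, were both higher. RPL11 had 88147, 75309.7 and 87655 in DMSO and 113763, 109188 and 111723 in Chelator, with no overlap (log2 fold change 0.41 ± 0.08 (SE, n = 3 per group), DESeq2 adjusted p = 5.50e-07). RPL5 had 77272, 67550.4 and 73948 in DMSO and 78821, 82999.8 and 84607 in Chelator, and its rise of 0.17 ± 0.07 (SE; adjusted p = 0.048) just passed and was lost without DMSO replicate 2, DMSO replicate 3, Chelator replicate 2 or Chelator replicate 3 (adjusted p 0.11 to 0.17) and with the trends removed (0.10, adjusted p = 0.13), with the mean log2 change as the center (0.07, adjusted p = 0.59), with no low-count filter (adjusted p = 0.054) and with a replicate block (adjusted p = 0.079).

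The paralogs were set against their core partners, since a paralog protein can take the place of its partner. RPL7L1 stood at 4.58, 5.395 and 5.05% in DMSO and 2.83, 2.79 and 2.94% in Chelator of the TPM of RPL7. RPL22L1, which takes over when RPL22 is missing, stood at 3.82, 4.200 and 4.02% in DMSO and 2.16, 2.33 and 2.34% in Chelator of RPL22. In both pairs the Chelator libraries were all lower. The change in the RPL22 pair came from RPL22, since RPL22L1 itself had normalized counts of 763, 589 and 699 in DMSO and 589, 746 and 716 in Chelator (log2 fold change -0.00 ± 0.15 (SE), adjusted p = 1.0), with overlapping groups. In the RPL7 pair the larger change was that of the paralog RPL7L1 (log2 fold change -0.67). RPL7 was at 0.14 ± 0.08 (SE; adjusted p = 0.17), and its TPM was higher in every Chelator library. RPL39L went from 3.53% ± 0.203 to 2.43% ± 0.253 (SD, n = 3) of RPL39. RPL26L1 went from 5.09% ± 0.455 to 4.38% ± 0.145 of RPL26, and neither gene of that pair passed its own test (-0.18 ± 0.12 (SE; adjusted p = 0.24) and 0.04 ± 0.09 (SE; adjusted p = 0.77)). RPL36AL, the most abundant paralog relative to its partner, went from 29.5% ± 2.26 to 21.7% ± 2.02 of RPL36A, although its own counts rose (0.32 ± 0.12 (SE; adjusted p = 0.017), a call lost in 4 of the 6 fits that left out a library, with adjusted p 0.065 to 0.14, and with the trends removed, at 0.23, or the mean log2 change as the center, at 0.22). In these 5 pairs the paralog share was lower in all Chelator libraries.

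RPS27L, a target of p53, was the exception at 1.49, 1.77 and 1.87% in DMSO and 2.23, 2.02 and 2.52% in Chelator of RPS27, higher in every Chelator library. RPS27L had normalized counts of 2207, 2143 and 2294 in DMSO and 2797, 2635 and 2839.8 in Chelator and rose (log2 fold change 0.32 ± 0.08 (SE, n = 3 per group), DESeq2 adjusted p = 4.95e-04), but the call was lost without the offset (0.11, adjusted p = 0.27) and with the mean log2 change as the center (0.21). Its ratio turned with the scale, since the log2 ratio of TPM changed by 0.40 and the log2 ratio of plain counts by -0.34, and RPS27 is the gene whose own direction depended on the offset. In the other 5 pairs the ratio of plain counts changed in the same direction as that of TPM, by -0.13 to -0.83 on the log2 scale. The exact permutation test on the log2 ratios gave p = 0.10 in each of the 6 pairs, the smallest value possible, and 0.10 after Benjamini-Hochberg adjustment over the 6. RPL3L, a form used in muscle, had 2 to 20 counts per library and was not called (log2 fold change 1.595 ± 0.99 (SE), adjusted p = 0.21).

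**Figure D4:**
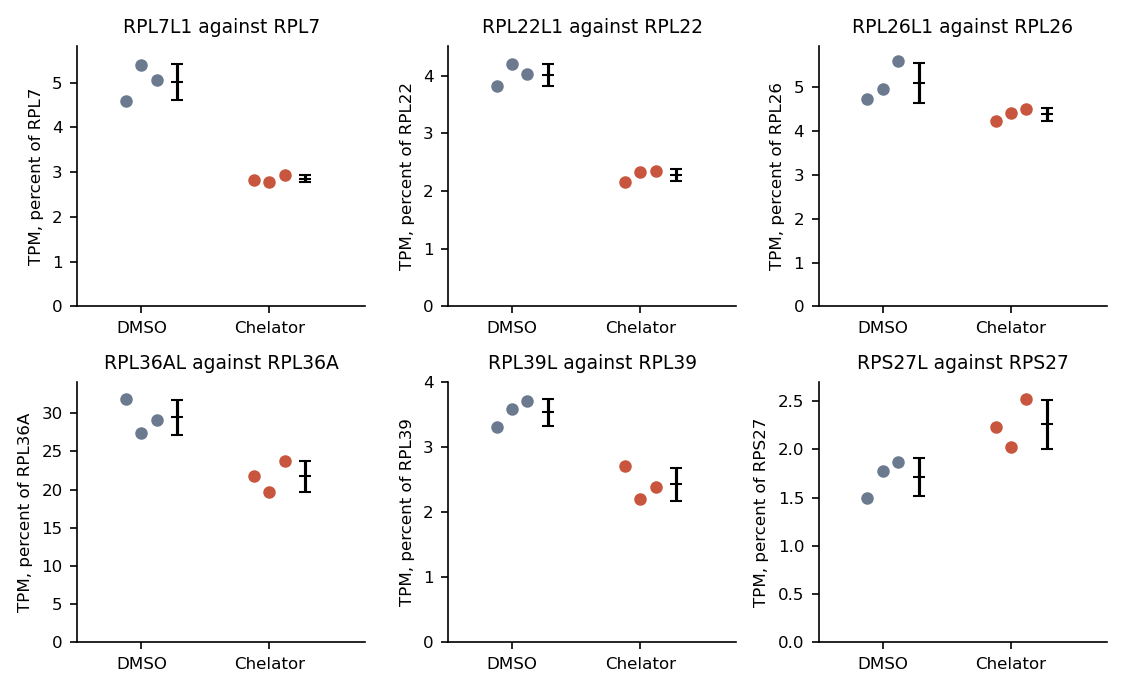
TPM of each paralog as a percent of the TPM of its core partner in 3 DMSO and 3 Chelator libraries, with the mean ± SD beside the points. The percent is lower in every Chelator library in 5 pairs and higher in every Chelator library for RPS27L, whose ratio by plain counts moved the other way.

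Of 20 members that are known Diamond-Blackfan anemia genes, 11 rose, none fell and 9 did not pass, with a median of 0.24, the same as over all members. That is 55% higher, near the 53.6% of all members, while 19.5% of all genes tested were higher and 18.3% lower. With the trends removed 6 of the 20 were higher and 5 were lower (16.2% and 23.8% of all genes). RPS24, another of these genes, had normalized counts of 43257, 34854 and 37851 in DMSO and 51845, 56371 and 52765 in Chelator and rose by 0.47 ± 0.09 (SE; adjusted p = 3.69e-07), without overlap. RPS26 was at -0.17 ± 0.09 (SE; adjusted p = 0.12) and RPS7 at 0.06 ± 0.08 (SE; adjusted p = 0.65). Many ribosomal protein genes carry small nucleolar RNAs (snoRNAs), which guide the modification of rRNA, in their introns. A snoRNA lay within the gene on the same strand in 28 core genes, of which 13 rose and 1 fell (RPL23), with a median of 0.17. Of the 49 core genes without one, 30 rose and 1 fell (RPS15), with a median of 0.27. Over all genes tested 19.5% were higher and 18.3% lower. Without the offset 23 of 28 and 40 of 49 were higher (20.9% of all genes), with medians of 0.28 and 0.39. With the trends removed 6 were higher and 7 lower among the former and 15 and 9 among the latter (16.2% and 23.8% of all genes). Among the core genes with a TOP start 29 of 42 rose and 0 fell, with a median of 0.30, and among those without one 9 of 20 rose and 1 fell, with a median of 0.20 (19.5% and 18.3% of all genes rose and fell). These splits are descriptions. With the trends removed the TOP genes had 13 higher and 6 lower and the others 7 higher and 5 lower (16.2% and 23.8% of all genes).

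Which transcripts carried the counts was examined next. GENCODE sorts transcripts into classes: protein_coding, retained_intron, nonsense_mediated_decay (transcripts with an early stop codon that the cell degrades) and protein_coding_CDS_not_defined. Of the TPM of all members, 9.25, 9.26 and 9.87% lay outside the protein_coding class in DMSO and 10.5, 10.6 and 11.1% in Chelator. The Chelator libraries were all higher (9.46% ± 0.354 and 10.7% ± 0.339, SD, n = 3 each; exact permutation p = 0.10, the smallest possible). The nonsense-mediated decay class had 0.861% to 0.906% in DMSO and 1.24% to 1.52% in Chelator, and the class without a defined coding sequence had 1.87% to 2.02% and 2.31% to 2.48%. Retained introns, the largest of these classes, overlapped at 6.42% to 6.94% and 6.70% to 7.14% (exact permutation p = 0.30). These are pooled values, in which a few abundant genes can weigh heavily. In RPS3 the nonsense-mediated decay class went from 26.8% to 47.4% of the gene's TPM. The class without a defined coding sequence went from 1.00% to 11.6% in RPL4 and from 63.7% to 70.7% in RPS4X. The part of single genes in the pooled rises was not worked out.

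A test of class use within each gene (edgeR's diffSpliceDGE) was run on 8817 genes, of which 79 were members. It does not see moves between transcripts of the same class, such as those of RPL22 and RPL36A given above. At a Simes adjusted p under 0.05, 31 members passed (22.4% of all genes tested). Of these 31 the protein_coding share was lower in 16 and higher in 15. A change was called when a class share had also moved by over 5 percentage points, and 7 members were called, 8.86% against 16.3% of all genes tested. They were RPL11, RPS3, RPL4, RPS28, RPS4X, RPL7L1 and RPL32, and the protein_coding share fell in all 7, as it did in 83.0% of all called genes. Over all 79 members tested it was lower in 39. In RPL37, which was not called (edgeR Simes adjusted p = 0.41), the protein_coding share went up from 25.4% ± 4.21 to 41.1% ± 2.79 (SD, n = 3), without overlap. RPL11, RPL4 and RPS28 were called in all 11 alternatives run, and RPS3 in all but limma's test. RPS4X, RPL7L1 and RPL32 lost the call in 3 to 5 alternatives, and without Chelator replicate 3 there were 4 calls.

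**Figure D5:**
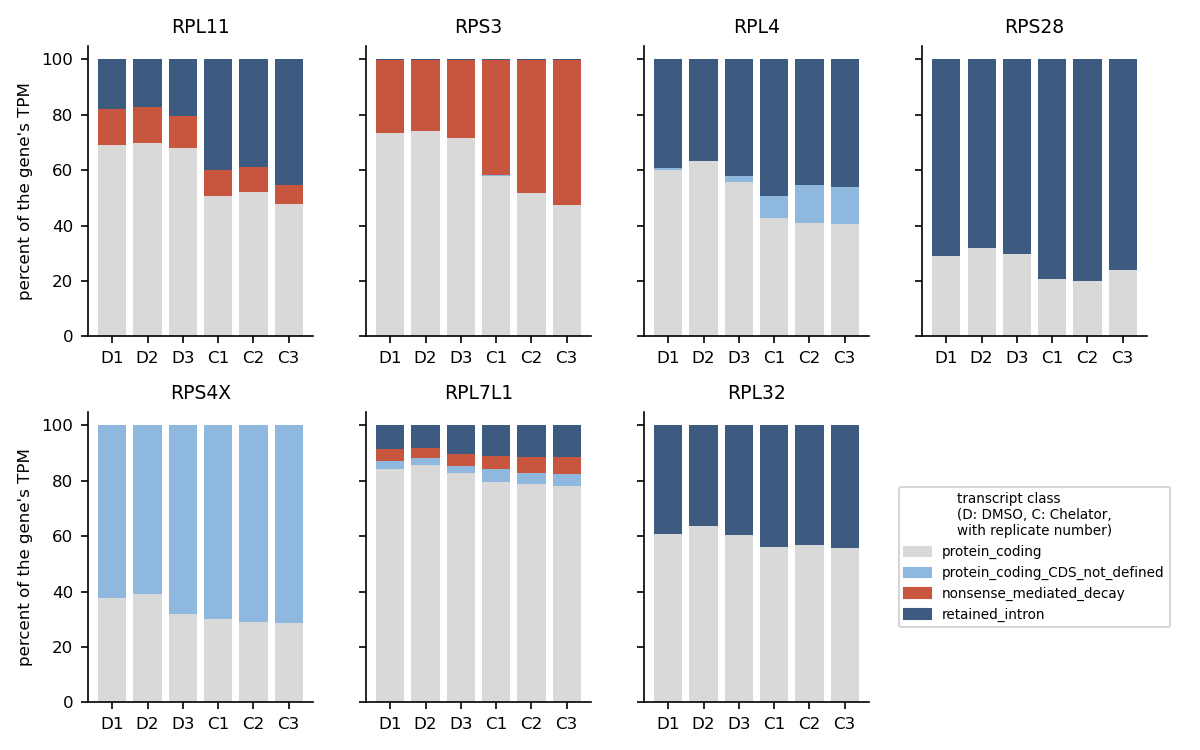
Percent of each gene's TPM by transcript class in the 3 DMSO (D1 to D3) and 3 Chelator (C1 to C3) libraries for the 7 members called, stacked to 100%. The gray protein_coding part is lower in every Chelator library in all 7 genes, from a fall of 20.6 percentage points in RPS3 to one of 5.35 points in RPL32.

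In RPL11 (chr1:23691742-23696835), whose protein belongs to the 5S particle, the retained-intron class held 17.9, 17.3 and 20.5% in DMSO and 40.03, 38.98 and 45.5% in Chelator of the TPM. Every Chelator library was higher (a rise of 22.9 percentage points, edgeR Simes adjusted p = 4.90e-21). Nearly all of it was RPL11-205, a transcript of 539 bases, at 17.6, 16.98 and 20.2% in DMSO and 39.8, 38.7 and 45.2% in Chelator. The main coding transcript RPL11-201 went from 54.7% ± 1.85 to 40.2% ± 2.91 (SD, n = 3), and the nonsense-mediated decay class went down too, from 12.5% to 8.32%. Because of this move the rise of RPL11 was not seen in its protein_coding transcripts alone, where the log2 fold change was -0.01 (adjusted p = 0.95).

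In RPS3 (chr11:75399515-75422280), which lines the channel where mRNA enters the ribosome, the nonsense-mediated decay class held 26.4, 25.7 and 28.3% in DMSO and 41.8, 48.2 and 52.3% in Chelator. All Chelator libraries were higher (a rise of 20.6 percentage points, edgeR Simes adjusted p = 4.04e-09). Most of the rise was in RPS3-210, of 473 bases, at 1.34, 1.38 and 1.89% in DMSO and 10.7, 16.3 and 24.8% in Chelator. The coding transcripts RPS3-219, RPS3-209 and RPS3-203 all held less, with means of 18.6%, 5.31% and 47.9% in DMSO and 9.91%, 0.580% and 40.4% in Chelator. Over protein_coding transcripts alone RPS3 was at -0.06 (adjusted p = 0.62), against 0.38 ± 0.08 (SE; adjusted p = 8.62e-06) over all of its transcripts.

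RPL4 (chr15:66498015-66524532), which reaches into the exit tunnel, had a protein_coding share of 60.2, 63.3 and 55.6% in DMSO and 42.7, 40.9 and 40.6% in Chelator. Every Chelator library was lower (by 18.3 percentage points, edgeR Simes adjusted p = 4.33e-14). RPL4-209, a transcript of 408 bases without a defined coding sequence, went from 0.436, 0.0647 and 2.41% to 7.78, 13.7 and 13.3%, and the retained-intron class from 39.3% to 47.0%. The gene as a whole was at 0.10 ± 0.06 (SE; adjusted p = 0.17), and its protein_coding transcripts alone were lower at -0.39 (adjusted p = 3.84e-10). In RPS28, a small protein at the mRNA exit, the retained-intron class held, per length, 70.8, 68.03 and 70.2% in DMSO and 79.2, 79.99 and 75.96% in Chelator. It was higher in every Chelator library (by 8.69 points, edgeR Simes adjusted p = 1.78e-06) and was made up almost wholly of RPS28-201, of 334 bases. By counts it was the smaller part, with 3605, 2325, 2994, 8265, 11729 and 8194 counts against 17854, 13941, 14350.0, 19300.0, 23831 and 20016 of the protein_coding class in the 3 DMSO and then the 3 Chelator libraries. In RPS4X, on the X chromosome, a class without a defined coding sequence went from 63.7% ± 3.94 to 70.7% ± 0.810 (SD, n = 3; edgeR Simes adjusted p = 0.013). By counts this class too was the smaller part in every library, with 20996, 16715, 21966, 41354, 48927 and 41395 counts against 45411, 38954, 36119, 58955, 64996 and 52729 in the same order.

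Several of these transcripts lie almost wholly within exons of coding ones, and how many reads tell them apart was not measured. RPL11-205 has 501 of its 539 bases in exons of protein_coding transcripts of the gene and shares all 3 of its introns with them, and RPS28-201 has 312 of its 334 bases there and shares both introns, so that neither holds a whole intron in spite of its class. RPS3-210 has all of its 473 bases in coding exons and differs in 1 of its 4 junctions. RPL4-209 has 330 of 408 bases there, RPS4X-202 has 413 of 594, and RPL32-207 has 333 of 631. The MANE Select transcripts, 1 reference mRNA per gene, held 60.3% to 61.3% of the members' TPM in DMSO and 56.9% to 58.7% in Chelator. The transcripts that gained most in RPL11, RPS3 and RPL4 were 408 to 539 bases long, and the fragment length also differed between the groups. Its part in these shares was not tested beyond fits with a length offset per class, which called 6 members, among them RPL11, RPS3, RPL4 and RPS28, and fits on transcripts of at least 300 bases, which called 7. Of the other genes known to make degraded or intron-holding transcripts, RPL3, RPL12 and RPL7A did not pass (edgeR Simes adjusted p = 0.14, 1.0 and 0.75). RPL3, whose protein borders the catalytic center, kept a protein_coding share of 95.7% ± 0.593 and 96.2% ± 1.13 (SD, n = 3). RPL10A passed with a move of 1.70 percentage points, and its protein_coding share went from 97.2% to 95.5%. RPS9 passed with a smaller one, in which its retained-intron share was 1.09% ± 0.0856 and 0.584% ± 0.0378 and its nonsense-mediated decay share 0.213% and 0.592%.

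Ribosomal protein genes have many processed copies in the genome, and reads may be split between a gene and its copies. By name, 1602 pseudogenes and readthrough genes were tied to a member, 249 of which had a total above 10 counts. A median of 49.3% of the 31-base words of a core gene's most abundant coding transcript also occurred in these copies, with a range of 0.463% to 96.7%. Together they held 0.308% ± 0.0176 of all TPM in DMSO and 0.493% ± 0.0406 in Chelator (SD, n = 3). With them added, the members' share of all TPM was 14.7% in DMSO and 17.96% in Chelator. With DMSO the counts of RPS28P7, on chromosome 11, were all 0, and with the chelator they were 1455, 2779 and 3260.0. RPL22P1, on chromosome 3, had 39, 0 and 76 counts in DMSO and 3559, 3960.0 and 4778 in Chelator. Both were near empty in DMSO and at 8.21% and 7.25% of the parent's counts in Chelator. Per length RPS28P7 overlapped with its parent, since its TPM were 737, 1128 and 1422 in Chelator against 973, 1159 and 951 for RPS28.

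With such counts added to the parent, the log2 fold change of RPS28 went from 0.65 to 1.70 and that of RPL22 from 0.81 to 1.09, which made them the 2 members that passed the test with a log2 fold change over 1. For RPS28 this came mostly through length, since the added copy has an effective length of 27.3 bases in Chelator and pulled the pooled effective length down from 399 bases (DMSO) to 190 (Chelator), against 359.9 bases for RPS28 alone. The readthrough gene RPL36A-HNRNPH2, which spans RPL36A and its neighbor, had 3, 8 and 27 counts in DMSO and 4259, 5431 and 7160.0 in Chelator, where it reached 26.6% of the counts of RPL36A. With its counts and those of RPL36A pseudogenes added, RPL36A was at 0.58. The values of RPS28, RPL22 and RPL36A are uncertain in size for this reason. Over protein_coding transcripts only RPS28 did not pass (0.20, adjusted p = 0.057). RPL17 and RPS10, which also have readthrough partners, were at 0.06 and 0.31 alone and at 0.06 and 0.30 with them. The copy with the most counts, RPL23AP42, held 96.3% as many counts as RPL23A in DMSO and 134% in Chelator, and RPL23A was at -0.15 ± 0.08 (SE; adjusted p = 0.14) alone and at 0.02 with it.

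Among 18 other genes of translation or with TOP mRNAs, 8 rose, 2 fell and 8 did not pass, with a median of 0.15, where 19.5% of all genes tested were higher and 18.3% lower. With the trends removed 7 were higher and 6 lower (16.2% and 23.8% of all genes). FAU and RACK1, whose names fall outside the rule, were at 0.02 and 0.01 and did not pass. No direction is given for FAU, which was at 0.26 without the offset and at -0.37 with the trends removed, each with an adjusted p under 0.05, and RACK1 was at -0.24 (adjusted p = 0.01) with the trends removed. VIM, an intermediate filament gene, had the largest rise of this list (1.23 ± 0.09, SE), and EIF3A, a subunit of an initiation factor, the largest fall (-0.90 ± 0.12). Of 7 chaperones and carriers that bring single ribosomal proteins to the assembling ribosome, 6 fell (18.3% of all genes) and 1 rose (19.5%), with a median of -0.46, with the same counts when the trends were removed and with 5 falls and 1 rise without the offset. GRWD1, the carrier of RPL3, fell most, with normalized counts of 15321, 14624 and 14987 in DMSO and 7265, 7156 and 7093 in Chelator. Its groups did not overlap (-1.06 ± 0.06, SE; adjusted p = 2.98e-62), while RPL3 itself rose by 0.55 ± 0.07 (SE; adjusted p = 4.01e-13). TSR2, the carrier of RPS26, was the one that rose, by 0.38 ± 0.08 (SE; adjusted p = 3.87e-05).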

How the data were processed

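The authors quantified paired-end reads of 6 K562 libraries with salmon (version 1.10.2 in the submitters' processing notes, build hg38); the transcript annotation and any bias correction are not given in the sources used here. The deposited files hold, per transcript, estimated counts, often fractional since shared reads are divided, and the authors' TPM, which is the count per effective length scaled to the same total in every library. No replicates were pooled.

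GENCODE release 44 (GRCh38) held 251612 of the 252045 transcript identifiers. Estimated counts were summed per gene and rounded. Genes with a total above 10 were tested with DESeq2 1.42.0 (Wald test, Benjamini-Hochberg adjustment over all genes) with median-ratio size factors. The average effective transcript length was added as an offset, which the study's methods do not state. The test, adjustment and count threshold follow those methods, which also require an absolute log2 fold change above 1 for a call, and here rose and fell refer to the adjusted p alone. Class use was tested with edgeR 4.0.16 (diffSpliceDGE) on counts per gene and transcript type, over classes reaching 10 counts in 3 or more libraries. Single values per library were compared with exact two-sided permutation tests. Both fits were tested on simulated data with known changes. The simulated class data had the same effective lengths in every library and no division of shared reads. They therefore do not cover the difference in fragment length or transcripts that overlap. The members and gene lists were chosen with earlier results of these data known; some listed genes are not reported by name here. Genes named were the 5 largest rises and falls at an adjusted p under 0.05 and a mean normalized count of at least 500, the paralogs, stalk and 5S proteins, genes with known noncoding isoforms, genes with shared reads, the 5 most and least abundant core genes, and the 5 largest class changes; RPS29, RPS24, RPS7, RPL23A and the pseudogenes named were chosen after their values were seen. Alternatives covered edgeR, scaling, offset, filters, GC and length trends, added pseudogene counts, coding transcripts only, a replicate block and each library left out.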

Additional observations from a re-analysis of the deposited data

How the results depend on the processing

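The counts of members that rose or fell depended most on length, base composition and centring, whose values stand in the report: without the length offset 1 member was lower, with the mean log2 change as the center 23 were higher with a median of 0.14, and with GC content and length trends removed 22 were higher and 19 lower with a median of 0.018. The number that passed the test and changed by over 1 on the log2 scale went from 0 to 2 with pseudogene and readthrough counts added, through the pooled counts and effective lengths of RPS28 and RPL22, and to 1 over protein_coding transcripts only. Leaving out 1 library gave 37 to 51 higher and 2 to 7 lower, none that both passed and changed by over 1, medians of 0.16 to 0.30, and 4 to 8 members with a changed class. edgeR's quasi-likelihood test gave 51 higher and 3 lower. The differences in share kept their sign in every setting run, from 2.59 to 3.5001 points for TPM, 1.55 to 1.94 points for counts and 1.06 to 1.47 points for the classes other than protein_coding.

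Of 608 values of the 38 named members in other settings, 511 kept their direction and their side of the threshold, 47 were no longer past it, 24 were newly past it and 26 changed sign. RPL22L1, near 0, changed sign with edgeR (0.045), TMM size factors (0.045), no offset (0.15), pooled copies (6.7e-05) and in 3 of the fits without 1 library (0.01 to 0.10). Without the offset RPS15 was at 0.048 and RPS27 at 0.45, and with 1 library left out RPS27 was between -0.14 and 0.0085. Centring took RPL17 to -0.048, RPL26 to -0.066 and RPL4 to -0.00086. With trends removed RPL10A was at -0.043, RPL17 at -0.10, RPL26 at -0.15, RPL39 at -0.035, RPL4 at -0.027, RPL7A at -0.049, RPLP0 at -0.071 and RPS2 at -0.21. Over protein_coding transcripts RPL11 was at -0.0081, RPL4 at -0.39 and RPS3 at -0.059. Without DMSO replicate 2 RPL17 was at -0.014 and RPL26 at -0.051. Except where a pooled length is given, the cause was not tested.

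Libraries of the 2 groups share replicate numbers, and the correlations of same-numbered libraries were 0.00775, 0.13 and 0.0998 over 15222 genes. Replicates 2 and 3 matched best with their own number and replicate 1 with number 3, and since not every correlation was over 0.1 the numbers were not taken as pairs. A replicate block gave 46 higher and 3 lower with a median of 0.25, and 7 members with a changed class. Counting error is small at these depths, and the 3 libraries per group limit the precision.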
